A study of Mus musculus with 6 samples.

Results

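Proteasome genes were examined in RNA sequencing libraries of mouse osteoblasts, the cells that make bone. The members are the protein-coding rows of the count table whose mouse symbol begins with Psma, Psmb, Psmc, Psmd or Psme, without the immunoproteasome genes Psmb8 and Psmb9. The rule uses no measured value. It found 43 genes among 27179 gene IDs. It also takes in 2 genes named for a subunit whose product they bind, Psmc3ip and Psme3ip1, and the assembly chaperones Psmd5, Psmd9 and Psmd10. All of these count as members in the totals below. The knockout group is 3 libraries titled Cdc73/Hrpt2 Flox, whose genotype label reads Cdc73/Hrpt2 KO, and the wildtype group is 3 libraries titled Wildtype. All 6 came from the calvaria, the flat skull bones, of pups aged 5 days on the C57Bl/6J strain. Cells were sorted by GFP, a transgene that the labels place under the control of Osteocalcin-Cre, and the label says conditional knockout without naming the exons removed. Osteocalcin is a gene of mature osteoblasts, so the sort takes the cells in which that promoter is or was active. The labels do not say whether a library is 1 animal or a pool. The tests can therefore weigh differences only against the variation seen among these libraries, part of which may be technical.

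The proteasome is the main protease for proteins tagged with ubiquitin. Its 20S core is a barrel of outer alpha rings, which form the gate, and inner beta rings, which hold the catalytic sites. The 19S cap binds the ubiquitin chain, removes it, unfolds the protein with a ring of ATPases and threads it into the core, while the PA28 and PA200 activators can take the place of the cap. When proteasome activity is short, the transcription factor Nrf1, encoded by Nfe2l1, is processed and raises subunit genes together through antioxidant response elements. In osteoblasts the proteasome turns over regulators such as Runx2, and proteasome inhibitors are known to affect bone formation.

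Promoters are shown for selected members, as the 250 bases before the annotated start, 5′ to 3′, from RefSeq on GRCm38.p6, the assembly of mm10. Capitals mark matches on either strand to the antioxidant response element core, TGACNNNGC, or to the ETS site, CCGGAA. Psmb5 (gene ID 19173, chr14:54617996-54618245, minus strand) and Psmb6 (gene ID 19175, chr11:70525107-70525356, plus strand) encode catalytic subunits and each hold the antioxidant response element core.
Psmb5: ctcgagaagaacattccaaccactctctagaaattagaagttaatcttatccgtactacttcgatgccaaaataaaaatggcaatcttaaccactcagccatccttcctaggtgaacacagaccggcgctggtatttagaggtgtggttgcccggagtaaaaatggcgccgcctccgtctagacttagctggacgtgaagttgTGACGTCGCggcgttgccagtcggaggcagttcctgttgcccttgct
Psmb6: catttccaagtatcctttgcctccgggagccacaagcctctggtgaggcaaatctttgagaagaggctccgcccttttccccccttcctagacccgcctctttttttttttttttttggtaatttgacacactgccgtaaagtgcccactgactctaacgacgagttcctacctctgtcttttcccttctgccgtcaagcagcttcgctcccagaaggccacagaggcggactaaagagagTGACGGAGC
The next 3 belong to members with an unadjusted p under 0.05, and were picked because they hold an ETS match, which Psma2 and Psma7, the others with such a p, do not. They are Psma5 (gene ID 26442, chr3:108256676-108256925, plus strand), Psmd4 (gene ID 19185, chr3:95042615-95042864, minus strand) and Psmd10 (gene ID 53380, chrX:140956712-140956961, minus strand).
Psma5: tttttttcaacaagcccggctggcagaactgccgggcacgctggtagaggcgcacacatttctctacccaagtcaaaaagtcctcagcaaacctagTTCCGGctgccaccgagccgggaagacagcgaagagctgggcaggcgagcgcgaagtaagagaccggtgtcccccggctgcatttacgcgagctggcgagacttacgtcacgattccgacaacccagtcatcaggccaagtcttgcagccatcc
Psmd4: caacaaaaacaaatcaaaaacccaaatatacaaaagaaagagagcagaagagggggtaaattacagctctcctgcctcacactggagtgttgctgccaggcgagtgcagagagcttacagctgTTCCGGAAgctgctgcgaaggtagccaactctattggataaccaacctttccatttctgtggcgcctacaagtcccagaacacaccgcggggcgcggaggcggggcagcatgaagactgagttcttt
Psmd10: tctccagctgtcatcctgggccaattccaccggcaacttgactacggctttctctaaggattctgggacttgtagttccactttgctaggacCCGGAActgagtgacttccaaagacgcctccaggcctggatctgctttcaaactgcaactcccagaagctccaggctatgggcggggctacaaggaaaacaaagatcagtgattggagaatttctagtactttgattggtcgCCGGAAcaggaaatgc
The last belongs to Psme3 (gene ID 19192, chr11:101315963-101316212, plus strand), the member that was higher in every knockout library.
Psme3: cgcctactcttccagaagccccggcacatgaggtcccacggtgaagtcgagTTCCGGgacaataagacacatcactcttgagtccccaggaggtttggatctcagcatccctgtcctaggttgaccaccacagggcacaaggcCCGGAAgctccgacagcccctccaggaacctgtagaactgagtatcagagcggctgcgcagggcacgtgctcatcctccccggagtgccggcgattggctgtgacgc
In Psmd4 a forward and a reverse ETS match overlap, and Psmd10 and Psme3 hold 2 separate matches each.

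A promoter was matched for 36 of the members, all but Psma8, Psmb1, Psmb2, Psmb7, Psmc3, Psmd3 and Psmd7, and for 17491 protein-coding genes. The antioxidant response element core lay in 5 of the 36 member promoters (13.9%), namely Psmb5, Psmb6, Psmc6, Psmd9 and Psmd12, against 11.99% of all genes with a promoter. The ETS letters lay in 16 of 36 (44.4%), against 16.9% of all genes. Among the other motifs searched on both strands, the CCAAT box lay in 41.7% of member promoters against 39.5% of all, and the GC box, GGGCGG, in 58.3% against 45.8%. The TATA box, TATAAA, lay in 8.33% of them against 13.7%. The YY1 letters, AAGATGGC, were in 0 member promoters and in 1.77% of all. These matches describe letters in a fixed window and are not binding sites.

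Library totals ran from 13591925 to 20993962 counts. The targeted gene Cdc73 measured 13.98, 14.7 and 14.4 CPM in knockout 1, 2 and 3, against 20.5, 12.8 and 21.7 CPM in wildtype 1, 2 and 3, a log2 fold change of -0.36 ± 0.22 (adjusted p = 0.428). The library labelled wildtype 2 had the lowest Cdc73 value of the 6. Counts cover the whole gene and the removed exons are not given, so this level is no check of the labels, and groups are named here by their labels. The osteoblast identity of the libraries showed in Col1a1, the main collagen chain of bone, at 143517 to 214896 CPM. The 12 osteoblast markers had a median log2 fold change of -0.27, or -0.38 without wildtype 1 and -0.11 without wildtype 3. None was at 0 in any library. Of these 10 were negative, and Ibsp and Spp1 were positive. Sp7 (-0.62), Ifitm5 (-0.59) and Pth1r (-0.51) were the 3 lower at an unadjusted p under 0.05 in edgeR (25%), against 6.35% of all genes. Summed, the markers ranged from 247691 to 365992 CPM in knockout and from 291997 to 323830 CPM in wildtype. All 12 chondrocyte markers had a positive log2 fold change, with a median of 2.13, or 3.42 without wildtype 1. All 12 were higher at an unadjusted p under 0.05 in edgeR (100%), against 8.26% of all genes. Summed, they measured 26606, 15608 and 11801 CPM in knockout 1, 2 and 3, against 10082, 4067 and 3545 CPM in wildtype 1, 2 and 3. Log2 fold changes were also positive for all 12 macrophage and all 10 endothelial markers. The macrophage sums were 167 to 392.3 CPM in knockout and 98.9 to 143 CPM in wildtype. The endothelial sums were 279.9, 258 and 187 CPM in knockout 1, 2 and 3, against 183, 114 and 91.5 CPM in wildtype 1, 2 and 3. In the chondrocyte and endothelial sums wildtype 1 was the wildtype library nearest to knockout. None of these 3 lists had a marker at 0. Of the neutrophil markers 9 of 9 tested were positive (summed 58.6 to 197 CPM in knockout and 20.6 to 57.6 CPM in wildtype), and of the osteoclast markers 6 of 7 (summed 624 to 726 CPM in knockout and 464 to 629 CPM in wildtype). Of the erythroid markers 7 of 7 were positive (summed 49.9 to 403 CPM in knockout and 17.5 to 115 CPM in wildtype), and of the muscle markers 1 of 6 (summed 7.16 to 38.2 CPM in knockout and 8.30 to 51.6 CPM in wildtype). In these 4 lists Cxcr2, Elane, Dcstamp, Ocstamp, Calcr, Epb42, Alas2, Myh3, Ckm and Tnni2 were at 0 in at least 1 library. Their part in the proteasome results was not tested. In these bulk libraries, fewer cells of a type and less RNA per cell cannot be told apart.

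Most proteasome genes had lower mean levels in knockout than in wildtype, and none passed the test. CPM are counts scaled to a common library size with TMM factors, and fold changes are log2 of knockout over wildtype ± standard error from the quasi-likelihood fit of edgeR to the whole table. Of the 43 members 41 passed the filter on low counts, and 35 of these had a negative log2 fold change, with a median of -0.27 and a range of -0.66 to 0.26. Without Psmc3ip and Psme3ip1, 33 of 39 were negative and the median was -0.27. Over all 13505 genes tested the median was -0.0058 and 50.7% were negative. At an adjusted p under 0.05 edgeR called 0 members and 0% of all genes. DESeq2 and limma voom also called 0 members, while over all 13505 genes they called 248 and 0. The lowest adjusted p of a member was 0.324. At an unadjusted p under 0.05, 5 members were lower (12.2%), against 6.35% of all genes, and 0 were higher, against 8.26%. The 5 were Psmd4, Psma2, Psmd10, Psma5 and Psma7. In 5 members every knockout library lay below every wildtype library (12.2%), a share near the 9.81% of all genes. In 1 member, Psme3, the 3 knockout values all exceeded the 3 wildtype values (2.44%), against 10.6% of all genes.

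The members' summed level ranged more widely among the wildtype libraries than the group means differed. Summed over the members, the level was 1517, 1411 and 1577 CPM in knockout 1, 2 and 3, against 1452, 1756 and 2105 CPM in wildtype 1, 2 and 3. Wildtype 1 lay inside the knockout range and wildtype 2 and 3 lay above it. Without Psmc3ip and Psme3ip1 the sums were 1498, 1392 and 1559 CPM in knockout 1, 2 and 3, against 1433, 1741 and 2071 CPM in wildtype 1, 2 and 3. As shares of all counts, without TMM scaling, the members took 0.154, 0.137 and 0.128% in knockout 1, 2 and 3, against 0.158, 0.186 and 0.226% in wildtype 1, 2 and 3. On that scale every knockout library lay below every wildtype library, with knockout 1 just under wildtype 1. The median member's deviation from its own mean over the 6 libraries, on the log2(CPM + 0.5) scale, was -0.10, -0.17 and -0.068 in knockout 1, 2 and 3, against -0.13, 0.11 and 0.43 in wildtype 1, 2 and 3. Wildtype 1 was the lowest wildtype library for 32 of 41 members, against 4235 of all 13505 genes tested. Wildtype 3 was the highest for 33 members, against 4835 of all genes. In 26 members both wildtype 2 and wildtype 3 lay above every knockout library, against 3186 of all 13505 genes.

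**Figure D1:**
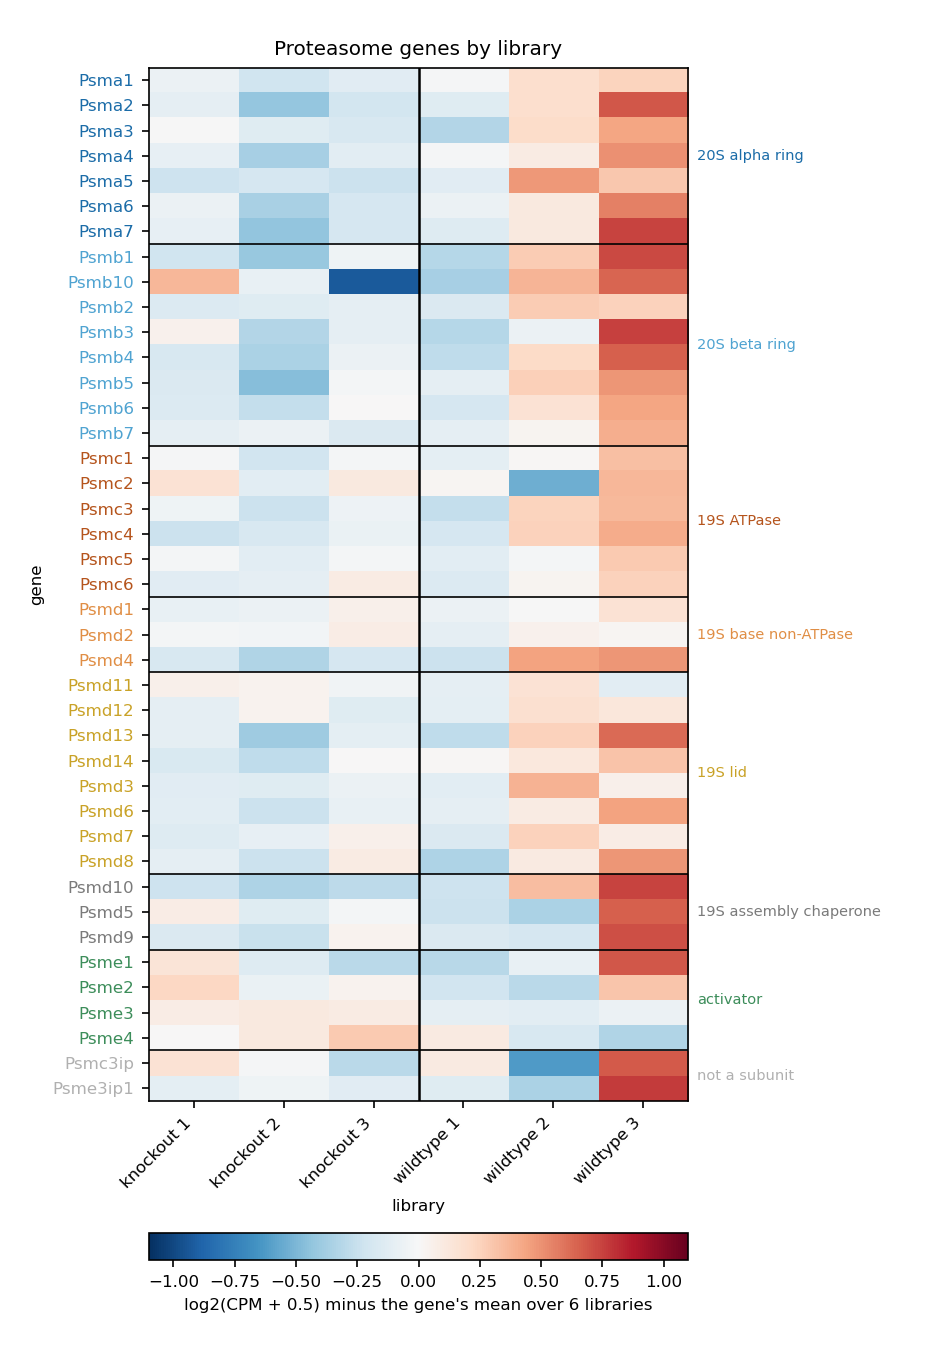
Level of each of the 41 tested members in each library, as log2(CPM + 0.5) minus the gene's mean over the 6 libraries, with genes grouped by role and red above the mean. Most rows of the 20S core are red in wildtype 2 and wildtype 3 and pale or blue in the knockout libraries and in wildtype 1.

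The lower mean of the knockout group rests on wildtype 2 and wildtype 3. Set against wildtype 1 alone, the members had a median of 0.031, with 13 of 41 negative. Without wildtype 1 it was -0.44, with 37 negative. In the fit without wildtype 1, 19 members were lower at an unadjusted p under 0.05 (46.3%), against 13.9% of all genes. Likewise 26 lay below wildtype 2 and 3 in every knockout library (63.4%), against 24% of all genes. There 1 member passed edgeR's adjusted threshold, Psmd4 (log2 fold change -0.72, adjusted p = 0.0456, over all alternatives 0.0456 to 0.998), against 2.96% of all genes. The count of 5 members lower at an unadjusted p under 0.05 became 1, 0 and 1 without knockout 1, 2 and 3, against 2.85%, 1.66% and 4.73% of all genes. It became 1 and 0 without wildtype 2 and 3, against 5.37% and 4.35% of all genes. The count of 5 without overlap became 8 without any 1 of the knockout libraries, against 13.5%, 11.6% and 17.3% of all genes without knockout 1, 2 and 3. Without wildtype 3 the median was -0.13 and without wildtype 2 -0.32. With library size alone in place of TMM, the median of all genes moved to -0.21 and that of the members to -0.47. Then 20 members were lower at an unadjusted p under 0.05 (48.8%), against 18.4% of all genes. In 25 every knockout library lay below wildtype (60.98%), against 25.6% of all genes.

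**Figure D2:**
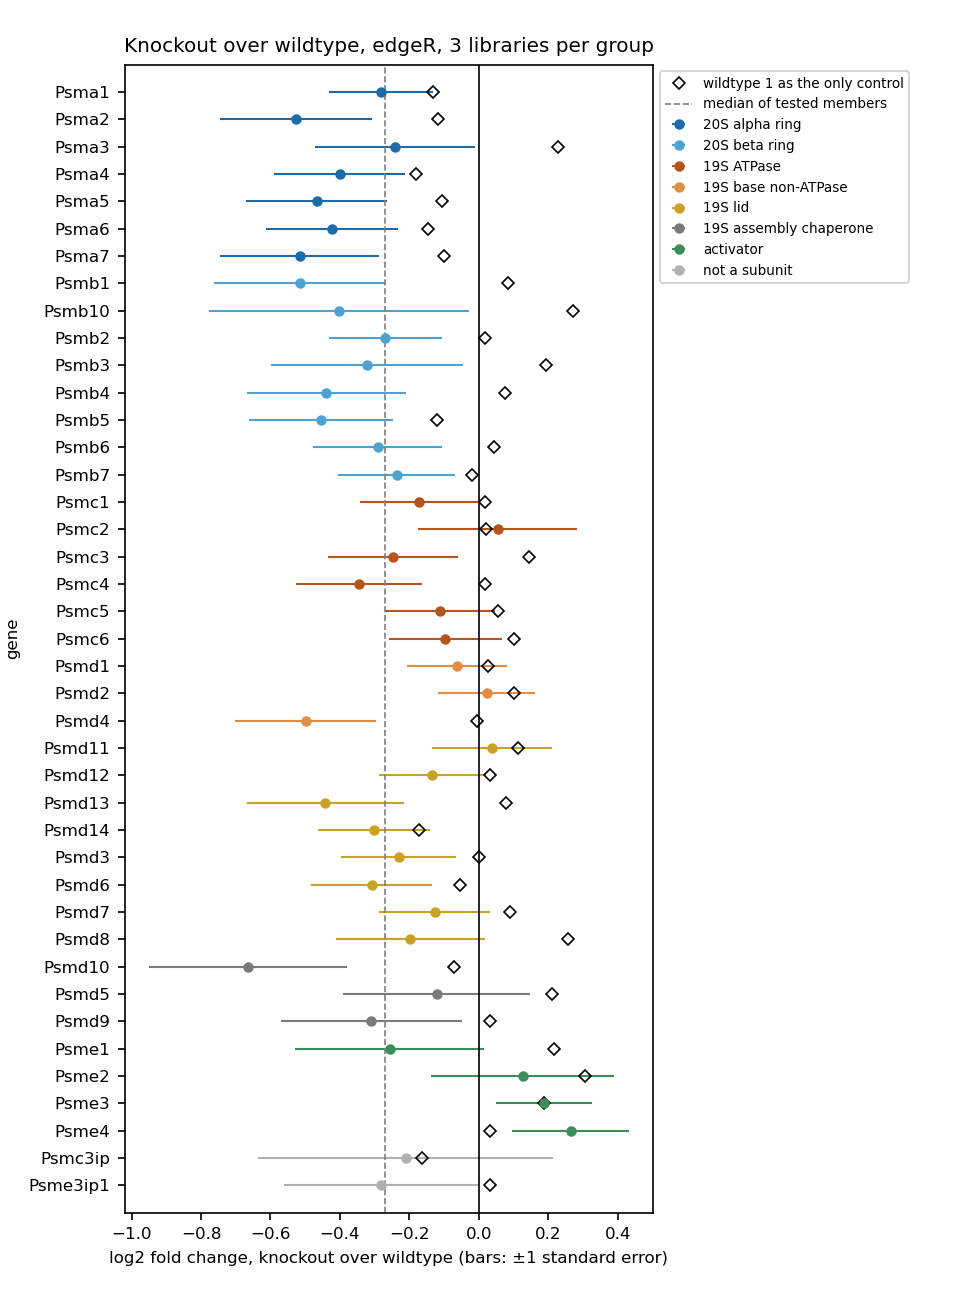
Log2 fold change of knockout over wildtype for the 41 tested members, with bars of 1 standard error, coloured by role, and open diamonds for the same value with wildtype 1 as the only control. All 15 tested genes of the 20S core lie left of 0 with all 6 libraries, while most diamonds lie near 0.

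All 7 tested alpha ring genes of the 20S core were negative, with a median of -0.42, or -0.57 without wildtype 1 and -0.24 without wildtype 3. Of these 3 had an unadjusted p under 0.05 (42.9%), against 6.35% of all genes. In 4 of them, Psma1, Psma4, Psma5 and Psma6, the groups did not overlap (57.1%), against 9.81% of all genes. These gaps were narrow. Knockout 1 and wildtype 1 measured 44.46 and 44.55 CPM for Psma6, 22.8 and 24.0 CPM for Psma4, and 37.2 and 38.5 CPM for Psma1. Summed, the ring measured 208, 174 and 196 CPM in knockout 1, 2 and 3, against 207, 247 and 325 CPM in wildtype 1, 2 and 3. Wildtype 1 thus fell within the knockout range of the sum. Psma2 measured 31.5, 24.9 and 29.2 CPM in knockout 1, 2 and 3, against 30.8, 38.4 and 54.4 CPM in wildtype 1, 2 and 3. Wildtype 3 stood far above the rest, and the log2 fold change was -0.53 ± 0.22 (adjusted p = 0.325). Psma5 measured 10.02, 10.4 and 9.95 CPM in knockout 1, 2 and 3, against 10.8, 16.6 and 14.6 CPM in wildtype 1, 2 and 3. Its knockout values were tightly grouped and lay just under wildtype 1, with a log2 fold change of -0.47 ± 0.20 (adjusted p = 0.338). Psma7, the most abundant of the ring per length, measured 51.3, 40.5 and 48.2 CPM in knockout 1, 2 and 3, against 49.7, 58.98 and 91.8 CPM in wildtype 1, 2 and 3. Its groups overlapped, and the log2 fold change was -0.52 ± 0.23 (adjusted p = 0.342). Psma6 (-0.42 ± 0.19), Psma4 (-0.40 ± 0.19) and Psma1 (-0.28 ± 0.15) had adjusted p of 0.345, 0.354 and 0.385, and Psma3 had the largest p of the ring (-0.24 ± 0.23, adjusted p = 0.597). With wildtype 1 as the only control, 6 of the 7 stayed negative, with a median of -0.12. Psma8, an alpha subunit of male germ cells, failed the filter, with 6, 6 and 4 counts in knockout 1, 2 and 3, against 9, 4 and 10 in wildtype 1, 2 and 3.

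All 8 tested beta ring genes were negative too, with a median of -0.36, or -0.59 without wildtype 1 and -0.18 without wildtype 3. Of these 0 were lower at an unadjusted p under 0.05, against 6.35% of all genes. In 0 of them every knockout library lay below every wildtype library, against 9.81% of all genes. Summed, they measured 336, 304 and 352 CPM in knockout 1, 2 and 3, against 317, 427 and 550.2 CPM in wildtype 1, 2 and 3. Psmb5, the chymotrypsin-like subunit that bortezomib blocks, measured 16.7, 13.4 and 18.5 CPM in knockout 1, 2 and 3, against 17.5, 22.7 and 26.6 CPM in wildtype 1, 2 and 3. Knockout 3 exceeded wildtype 1, and the log2 fold change was -0.45 ± 0.21 (adjusted p = 0.349). Psmb6, the caspase-like subunit, measured 55.6, 51.6 and 62.3 CPM in knockout 1, 2 and 3, against 54.5, 69.3 and 83.8 CPM in wildtype 1, 2 and 3. Here wildtype 1 lay between the knockout libraries (-0.29 ± 0.18, adjusted p = 0.438). Psmb7, the trypsin-like subunit, measured 41.9, 42.9 and 40.1 CPM in knockout 1, 2 and 3, against 41.9, 45.97 and 59.4 CPM in wildtype 1, 2 and 3. The 3 knockout libraries and wildtype 1 lay close together, below wildtype 2 and 3 (-0.24 ± 0.17, adjusted p = 0.484). The structural subunits Psmb1 (-0.52 ± 0.25, adjusted p = 0.36) and Psmb4 (-0.44 ± 0.23, adjusted p = 0.38) had fold changes of the same order. Psmb2 (-0.27 ± 0.16) and Psmb3 (-0.32 ± 0.28) made up the rest of the standard ring. With wildtype 1 as the only control, 2 of 8 were negative, Psmb5 at -0.12 and Psmb7 at -0.019. Levels of Psma5, Psmb5, Psmb6 and Psmb7 are uncertain to the extent that their processed pseudogenes share reads with them.

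Psmb10, the inducible counterpart of Psmb7 that immune cells use, had the largest standard error among the tested beta genes. It measured 9.54, 6.88 and 3.62 CPM in knockout 1, 2 and 3, against 5.55, 9.60 and 11.6 CPM in wildtype 1, 2 and 3. Knockout 3 was the lowest and wildtype 3 the highest of all 6, and the log2 fold change was -0.40 ± 0.37 (adjusted p = 0.587). Its partners that the rule leaves out were low. Psmb8 measured 6.30, 2.64 and 2.06 CPM in knockout 1, 2 and 3, against 1.62, 5.70 and 1.79 CPM in wildtype 1, 2 and 3 (0.30 ± 0.58, adjusted p = 0.809). Psmb9 measured 3.12, 1.25 and 0.411 CPM in knockout 1, 2 and 3, against 0.831, 0 and 0.657 CPM in wildtype 1, 2 and 3 (1.63 ± 0.96, adjusted p = 0.414). Both were highest in knockout 1 and overlapped between groups, and wildtype 2 had 0 counts of Psmb9. Knockout 1 also had the highest summed macrophage markers of the 6 libraries. Psmb11, the beta subunit of the thymic cortex, had 0 counts in all 6 libraries. An observed 0 was taken as compatible with an expected count of up to 3 in a library.

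At an unadjusted p under 0.05, 0 ATPase genes of the 19S base were lower, against 6.35% of all genes, and 0 higher, against 8.26%. Of the 6, 5 were negative, with a median of -0.14. This median was -0.094 without knockout 2, -0.25 without wildtype 1 and -0.018 without wildtype 3, where 3 of 6 were negative. Their sum was 254, 234 and 262 CPM in knockout 1, 2 and 3, against 236, 279.9 and 335 CPM in wildtype 1, 2 and 3. Psmc4 had the smallest p of the ring and measured 37.02, 38.6 and 41.5 CPM in knockout 1, 2 and 3, against 38.3, 52.3 and 58.3 CPM in wildtype 1, 2 and 3. All 3 knockout libraries lay near wildtype 1 (-0.34 ± 0.18, adjusted p = 0.384). Psmc3 measured 79.02, 68.9 and 78.2 CPM in knockout 1, 2 and 3, against 67.7, 96.6 and 105 CPM in wildtype 1, 2 and 3 (-0.25 ± 0.19, adjusted p = 0.506). At the other end Psmc2 measured 30.2, 24.8 and 29.04 CPM in knockout 1, 2 and 3, against 27.5, 18.4 and 34.99 CPM in wildtype 1, 2 and 3. Wildtype 2 was the lowest and wildtype 3 the highest of its 6 values (0.054 ± 0.23, and -0.15 with library size alone). Psmc1, Psmc5 and Psmc6 had log2 fold changes of -0.17, -0.11 and -0.10.

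Among the non-ATPase subunits of the base, Psmd4 stood apart from its neighbours. Psmd4, a receptor for ubiquitin chains, measured 43.1, 38.6 and 42.9 CPM in knockout 1, 2 and 3, against 41.4, 66.5 and 68.4 CPM in wildtype 1, 2 and 3. The 3 knockout libraries and wildtype 1 were alike, and wildtype 2 and 3 lay above them. Its means were 41.6 ± 2.52 CPM in knockout and 58.8 ± 15.1 CPM in wildtype (SD, n = 3 each). The log2 fold change was -0.50 ± 0.20 (adjusted p = 0.324), and -0.0062 with wildtype 1 as the only control. Psmd1 and Psmd2, the large scaffold subunits of the base, differed by less than their standard error. Psmd1 measured 67.9, 68.5 and 74.9 CPM in knockout 1, 2 and 3, against 68.7, 71.5 and 80.5 CPM in wildtype 1, 2 and 3 (-0.063 ± 0.14). Psmd2 measured 74.2, 73.5 and 79.6 CPM in knockout 1, 2 and 3, against 70.2, 77.5 and 76.2 CPM in wildtype 1, 2 and 3 (0.022 ± 0.14, and -0.18 with library size alone).

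Of the 8 lid genes 7 were negative, with a median of -0.21. At an unadjusted p under 0.05, 0 were lower, against 6.35% of all genes, and 0 higher, against 8.26%. The lid median was -0.37 without wildtype 1 and -0.14 without wildtype 3. Psmd14, the metalloprotease that cuts off the ubiquitin chain, measured 24.96, 23.1 and 28.3 CPM in knockout 1, 2 and 3, against 28.5, 30.6 and 35.05 CPM in wildtype 1, 2 and 3. It was the 1 lid gene of 8 without overlap between the groups (12.5%), a share near the 9.81% of all genes. Its values in knockout 3 and wildtype 1 were nearly equal (-0.30 ± 0.16, adjusted p = 0.388). Psmd13 measured 44.2, 36.1 and 43.8 CPM in knockout 1, 2 and 3, against 38.9, 56.7 and 73.2 CPM in wildtype 1, 2 and 3 (-0.44 ± 0.23, adjusted p = 0.376), with wildtype 1 inside the knockout range. The remaining lid genes, which encode structural subunits, ran from -0.31 for Psmd6 through Psmd3 (-0.23), Psmd8 (-0.20), Psmd12 (-0.13) and Psmd7 (-0.13) to 0.037 for Psmd11, which was -0.16 with library size alone. Psmd11, a lid subunit linked to proteasome assembly in human stem cells, measured 13.6, 13.4 and 12.7 CPM in knockout 1, 2 and 3, against 12.2, 14.6 and 12.00 CPM in wildtype 1, 2 and 3, with overlapping groups.

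The chaperones that help assemble the base were all negative, but 1 of the 3 was so without wildtype 3. Psmd10, also called gankyrin, had the most negative log2 fold change of all tested members. It measured 5.16, 4.73 and 4.94 CPM in knockout 1, 2 and 3, against 5.16, 7.86 and 10.6 CPM in wildtype 1, 2 and 3, from 86, 68 and 60 counts in knockout 1, 2 and 3, against 118, 113 and 177 in wildtype 1, 2 and 3. Knockout 1 and wildtype 1 were nearly equal, and the log2 fold change was -0.66 ± 0.29 (adjusted p = 0.332). Psmd9 measured 14.5, 13.6 and 16.7 CPM in knockout 1, 2 and 3, against 14.5, 14.2 and 26.9 CPM in wildtype 1, 2 and 3 (-0.31 ± 0.26, adjusted p = 0.551). Psmd5 measured 17.04, 14.6 and 15.9 CPM in knockout 1, 2 and 3, against 13.6, 12.5 and 25.6 CPM in wildtype 1, 2 and 3 (-0.12 ± 0.27, adjusted p = 0.837). In both of these, wildtype 3 alone lay above the other 5 libraries. The same held for Psme3ip1, which encodes a protein that binds the activator Psme3, with 15.6, 16.3 and 15.4 CPM in knockout 1, 2 and 3, against 15.3, 13.1 and 29.02 CPM in wildtype 1, 2 and 3 (-0.28 ± 0.28, adjusted p = 0.61). Psmc3ip, a recombination factor named for its binding to Psmc3, measured 3.12, 2.71 and 2.14 CPM in knockout 1, 2 and 3, against 2.97, 1.60 and 4.66 CPM in wildtype 1, 2 and 3 (-0.21 ± 0.42, adjusted p = 0.819).

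The activator genes did not share the sign of the core. Of the 4 activator genes 3 were positive, with a median of 0.16, which was -0.044 with library size alone, 0.10 without knockout 1, 0.090 without wildtype 1 and 0.075 without wildtype 2. Summed, they measured 157, 161 and 173 CPM in knockout 1, 2 and 3, against 153, 137 and 142 CPM in wildtype 1, 2 and 3. Psme4, which encodes PA200 and supplies most of this sum, measured 97.1, 104 and 118 CPM in knockout 1, 2 and 3, against 103, 85.5 and 76.8 CPM in wildtype 1, 2 and 3. Wildtype 1 lay between knockout 1 and knockout 2, and the log2 fold change was 0.26 ± 0.17 (adjusted p = 0.44). Psme3, the nuclear PA28 gamma, measured 37.6, 38.4 and 38.01 CPM in knockout 1, 2 and 3, against 33.2, 32.9 and 34.1 CPM in wildtype 1, 2 and 3. Its values hardly varied within a group and the groups did not overlap, with means of 38.02 ± 0.406 CPM in knockout and 33.4 ± 0.626 CPM in wildtype (SD, n = 3 each). The log2 fold change was 0.19 ± 0.14 (adjusted p = 0.497), and -0.016 with library size alone. The interferon-inducible pair differed in sign. Psme1 measured 16.1, 13.1 and 11.8 CPM in knockout 1, 2 and 3, against 11.7, 13.8 and 23.7 CPM in wildtype 1, 2 and 3 (-0.26 ± 0.27, adjusted p = 0.634). Psme2 measured 6.54, 5.21 and 5.68 CPM in knockout 1, 2 and 3, against 4.68, 4.38 and 6.93 CPM in wildtype 1, 2 and 3 (0.13 ± 0.26, adjusted p = 0.826, and -0.072 with library size alone). Both overlapped between groups, and the difference between the activators and the core was not tested.

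**Figure D3:**
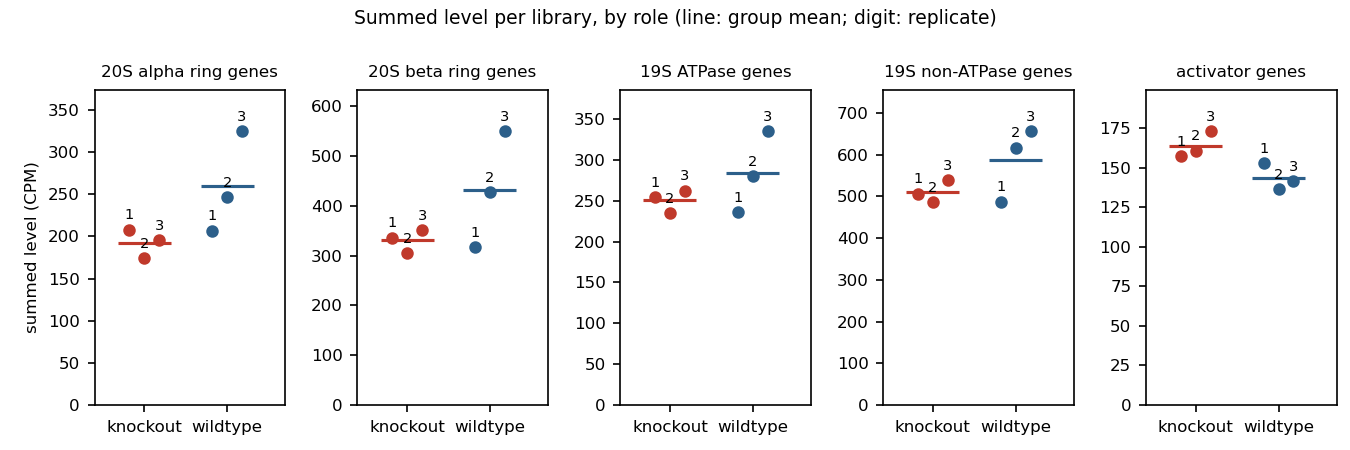
Summed CPM of the genes of each role in each library, with knockout in red, wildtype in blue, lines at the group means and digits for the replicate. Wildtype 1 sits with the knockout libraries for the core and the cap, and the 3 activator sums of knockout lie above those of wildtype.

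Although the standard subunits of the core are needed in equal numbers, their transcripts were not equal per length. Levels were divided by the mean length of the GENCODE transcripts paired with a RefSeq mRNA, and means over 3 libraries are given. The most abundant were Psmb4, at 70.1 CPM per kb in knockout and 94.99 CPM per kb in wildtype, and Psmb6, at 70.8 CPM per kb in knockout and 86.7 CPM per kb in wildtype. The alpha ring ran from Psma7, at 51.1 CPM per kb in knockout and 73.1 CPM per kb in wildtype, to Psma3, at 5.29 CPM per kb in knockout and 6.27 CPM per kb in wildtype. Psma3 and Psma5, at 8.16 CPM per kb in knockout and 11.3 CPM per kb in wildtype, were thus the scarcest standard core transcripts on this scale. The scarcest standard beta gene was Psmb5, at 18.04 CPM per kb in knockout and 24.7 CPM per kb in wildtype, and Psmb1 measured 40.5 CPM per kb in knockout and 57.9 CPM per kb in wildtype. Psmb10 measured 5.10 CPM per kb in knockout and 6.81 CPM per kb in wildtype, below its constitutive counterpart Psmb7 at 35.9 CPM per kb in knockout and 42.3 CPM per kb in wildtype. In the cap, the ATPases ran from Psmc3, at 46.1 CPM per kb in knockout and 54.8 CPM per kb in wildtype, to Psmc2, at 15.7 CPM per kb in knockout and 15.1 CPM per kb in wildtype, and the lid from Psmd8, at 45.6 CPM per kb in knockout and 52.3 CPM per kb in wildtype, to Psmd11, at 4.65 CPM per kb in knockout and 4.54 CPM per kb in wildtype. Neighbours in this order, such as Psmc2 and Psmc6 (15.9 CPM per kb in knockout and 17.01 CPM per kb in wildtype), overlap between libraries. The order also depends on which transcript ends are taken as the length of a gene.

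**Figure D4:**
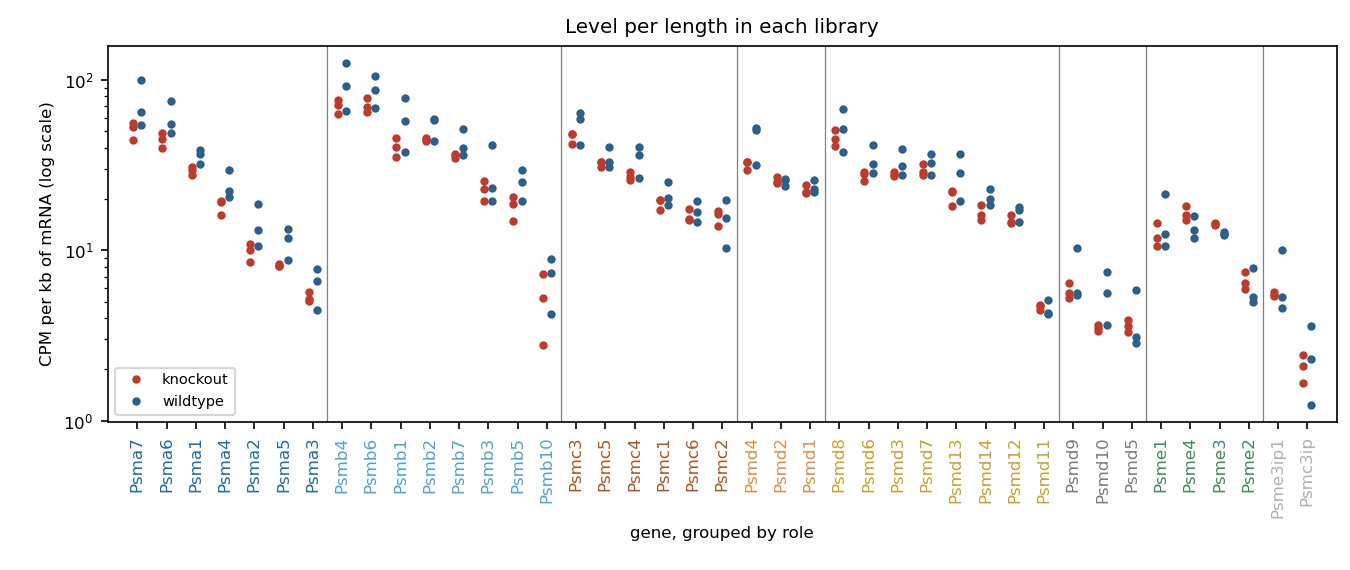
Level per kb of mRNA on a log axis for each tested member in each library, knockout in red and wildtype in blue, grouped by role and ordered by the wildtype mean. Psmb10 lies far below the other beta genes, and Psma3, Psma5 and Psma2 below the other alpha genes.

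Assembly factors and proteins bound to the proteasome, which the symbols of the members do not cover, had a median of -0.086, or -0.29 with library size alone, over 15 tested genes. It was -0.20 without wildtype 1 and -0.22 without wildtype 3. Of these 12 were negative. In 2, Psmf1 and Pomp, every knockout library lay below every wildtype library (13.3%), a share near the 9.81% of all genes. At an unadjusted p under 0.05, 0 were lower, against 6.35% of all genes. The share higher, 1 gene (6.67%), was near the 8.26% of all genes. The higher one was Zfand5, a zinc finger protein that binds ubiquitin and proteasomes, with 166, 195 and 144 CPM in knockout 1, 2 and 3, against 144, 129 and 88.2 CPM in wildtype 1, 2 and 3 (0.48 ± 0.21, adjusted p = 0.342). Psmf1, an inhibitor of the core, measured 14.5, 13.2 and 14.9 CPM in knockout 1, 2 and 3, against 14.99, 20.2 and 19.9 CPM in wildtype 1, 2 and 3, with no overlap but nearly equal values in knockout 3 and wildtype 1 (-0.37 ± 0.18, adjusted p = 0.365). Pomp, the maturation factor of the core, measured 29.8, 25.9 and 29.7 CPM in knockout 1, 2 and 3, against 29.9, 37.1 and 33.7 CPM in wildtype 1, 2 and 3, with knockout 1 and wildtype 1 nearly equal (-0.24 ± 0.16, adjusted p = 0.456). The assembly chaperone Psmg2 (-0.47 ± 0.26) and the small lid subunit Sem1 (-0.35 ± 0.21) overlapped between groups, with adjusted p of 0.397 and 0.414. Values near 0 were found for the ubiquitin receptor Adrm1 (-0.024 ± 0.19) and the proteasome deubiquitinase Usp14 (-0.072 ± 0.19).

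Genes of the Nrf1 and Nrf2 system, which controls proteasome transcription, mostly had positive fold changes where the core had negative ones. Of 11 tested 8 were positive, with a median of 0.44, or 0.25 with library size alone. At an unadjusted p under 0.05, 4 were higher (36.4%), against 8.26% of all genes, and 0 were lower, against 6.35%. The list's median was 0.26 without knockout 2. Nfe2l1 measured 150.2, 149.7 and 143 CPM in knockout 1, 2 and 3, against 109.7, 100.4 and 71.8 CPM in wildtype 1, 2 and 3. The knockout values all exceeded the wildtype values by a wide gap, with means of 148 ± 3.85 CPM in knockout and 93.96 ± 19.7 CPM in wildtype (SD, n = 3 each). The log2 fold change was 0.65 ± 0.18, and it did not pass edgeR's test (adjusted p = 0.273), whereas it did in DESeq2 (adjusted p = 0.0385). Over all alternatives its adjusted p ran from 0.0385 to 0.947. With wildtype 1 as the only control it was 0.42, and with library size alone 0.45. Nfe2l2, which encodes Nrf2, measured 56.04, 52.1 and 39.7 CPM in knockout 1, 2 and 3, against 37.99, 33.7 and 23.05 CPM in wildtype 1, 2 and 3 (0.64 ± 0.22, adjusted p = 0.291). Mafk, a small Maf partner of both factors, measured 79.98, 75.9 and 51.4 CPM in knockout 1, 2 and 3, against 40.3, 32.3 and 14.03 CPM in wildtype 1, 2 and 3 (1.26 ± 0.34, adjusted p = 0.273), with an adjusted p = 0.0175 in DESeq2 and 0.0131 to 0.947 over all alternatives. Neither Nfe2l2 nor Mafk overlapped between groups, though for Nfe2l2 knockout 3 at 39.7 CPM lay close to wildtype 1 at 37.99 CPM. With Nfe2l1 they were the 3 of 11 tested genes higher in every knockout library (27.3%), against 10.6% of all genes.

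Other genes of that list, chosen for mention after their values were seen, gave mixed signs. The heme oxygenase gene Hmox1, which macrophages also express, measured 76.3, 52.95 and 33.9 CPM in knockout 1, 2 and 3, against 30.1, 44.4 and 22.7 CPM in wildtype 1, 2 and 3 (0.75 ± 0.31, adjusted p = 0.325), with overlap. Nqo1 (-0.46 ± 0.39, adjusted p = 0.554) and Gclm (0.066 ± 0.22, adjusted p = 0.9), targets of Nrf2, and Keap1 (-0.29 ± 0.16, adjusted p = 0.388), its inhibitor, did not pass. Ddi2, the protease that cuts Nrf1 (0.30 ± 0.20, adjusted p = 0.452), and Ngly1, which removes its sugars (-0.12 ± 0.16, adjusted p = 0.72), did not either. Summed, the list was 400.5 to 536 CPM in knockout and 234 to 361 CPM in wildtype, in libraries whose macrophage markers summed to 167 to 392.3 CPM in knockout and 98.9 to 143 CPM in wildtype. Whether other cells contribute was not tested. Psmb5 and Psmb6, whose promoters hold the antioxidant response element core shown above, had log2 fold changes of -0.45 and -0.29. Psmd9, Psmd12 and Psmc6, the others with that element, had -0.31, -0.13 and -0.10. The median over all 41 tested members was -0.27, and a link between the element and the fold changes was not tested.

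**Figure D5:**
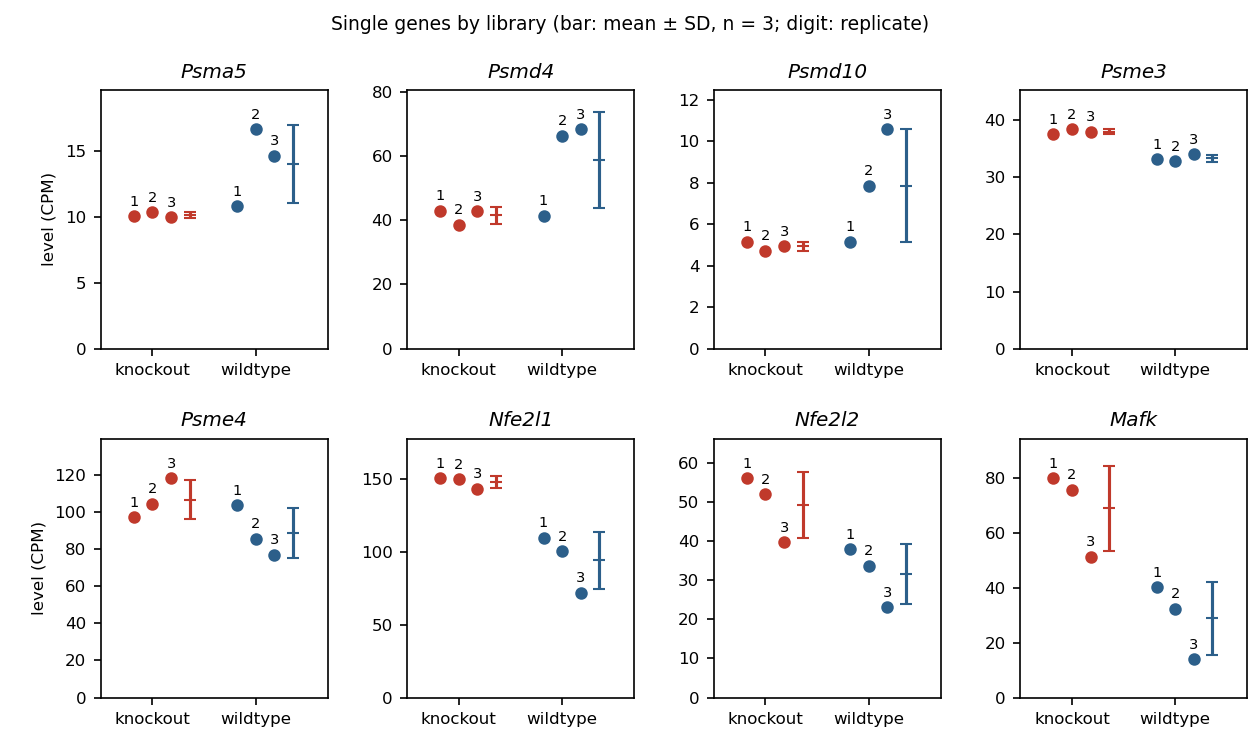
Level in CPM by library for members and regulators, knockout in red and wildtype in blue, with the mean and SD beside the points and digits for the replicate. Psma5, Psmd4 and Psmd10 are close to the knockout level in wildtype 1 and above it in wildtype 2 and 3, and Nfe2l1, Nfe2l2 and Mafk lie higher in every knockout library.

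Upstream of the proteasome, the ubiquitin and E1 genes had a median of -0.26, or 0.084 with wildtype 1 as the only control. All 5 tested genes were negative, and 0 were lower at an unadjusted p under 0.05, against 6.35% of all genes. In 1 of them, Uba1, the groups did not overlap (20%), against 9.81% of all genes. Rps27a measured 33.3, 28.98 and 39.8 CPM in knockout 1, 2 and 3, against 31.9, 46.9 and 65.3 CPM in wildtype 1, 2 and 3 (-0.50 ± 0.25, adjusted p = 0.374). It encodes ubiquitin fused to a ribosomal protein, and wildtype 1 lay inside the knockout range. Uba1, the main activating enzyme, measured 176, 181 and 177 CPM in knockout 1, 2 and 3, against 192, 225 and 224 CPM in wildtype 1, 2 and 3, without overlap (-0.26 ± 0.15, adjusted p = 0.411), and the polyubiquitin gene Ubb had -0.087 ± 0.20. Shuttle factors and the p97 segregase had a median of -0.013, or -0.21 with library size alone, 0.00075 without wildtype 1 and -0.066 without wildtype 2. Of 12 tested, 1 was higher at an unadjusted p under 0.05 (8.33%), a share near the 8.26% of all genes. That gene was Ubqln2 (0.44 ± 0.18, adjusted p = 0.325). Vcp, which encodes p97, measured 41.9, 42.8 and 47.3 CPM in knockout 1, 2 and 3, against 45.03, 41.7 and 48.4 CPM in wildtype 1, 2 and 3 (-0.035 ± 0.15), and Ubxn4 and Nploc4, cofactors of p97, had 0.18 ± 0.19 and -0.13 ± 0.14.

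Ubiquitin ligases and a deubiquitinase studied in bone or muscle had a median of 0.21 over 13 genes. This median was 0.0037 with library size alone, 0.10 without knockout 2, 0.057 without wildtype 2 and 0.059 without wildtype 3. Of the 13, 1 was higher at an unadjusted p under 0.05 (7.69%), a share near the 8.26% of all genes. That gene, Cbl, measured 14.04, 19.5 and 16.9 CPM in knockout 1, 2 and 3, against 12.8, 10.1 and 10.03 CPM in wildtype 1, 2 and 3 (0.61 ± 0.20, adjusted p = 0.285). Wwp2 (0.33 ± 0.17, adjusted p = 0.382) and Stub1 (-0.27 ± 0.16, adjusted p = 0.426) followed in order of p. Of the antigen processing genes, which use the peptides that proteasomes make, 8 of 9 tested were positive, against 6662 of all 13505 genes. Their median was 0.34, or 0.14 with library size alone and 0.22 without knockout 1. H2-K1, a class I heavy chain, measured 142, 91.3 and 103 CPM in knockout 1, 2 and 3, against 56.4, 62.4 and 61.3 CPM in wildtype 1, 2 and 3 (0.90 ± 0.19, adjusted p = 0.273, and 0.00254 in DESeq2, with 0.00254 to 0.947 over all alternatives). H2-D1 measured 102, 68.7 and 71.7 CPM in knockout 1, 2 and 3, against 46.6, 56.3 and 51.2 CPM in wildtype 1, 2 and 3 (0.65 ± 0.19, adjusted p = 0.273). Both were among the 4 of 9 tested genes of the list that were higher in every knockout library (44.4%), against 10.6% of all genes. Reads of H2-K1 and H2-D1, which are similar genes, can be shared. Macrophage and endothelial markers had higher sums in the same libraries, as given above, and their part was not tested.

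Other housekeeping genes showed a like order of the libraries. Over 81 tested cytosolic ribosomal protein genes the median library deviations were -0.12, -0.44 and -0.0029 in knockout 1, 2 and 3, against -0.23, 0.28 and 0.55 in wildtype 1, 2 and 3. Over 76 nuclear oxidative phosphorylation genes they were -0.12, -0.42 and -0.032 in knockout, against -0.17, 0.24 and 0.55 in wildtype. For the proteasome core the values were -0.10, -0.32 and -0.13 in knockout, against -0.14, 0.18 and 0.50 in wildtype. In all 3 sets wildtype 1 lay among the knockout libraries and wildtype 3 was the highest. The fold change medians were -0.40 for the core, -0.41 for the ribosomal protein genes and -0.43 for the oxidative phosphorylation genes, while the 19S ATPases had -0.14. Each moved with the wildtype libraries kept. Without wildtype 1 the medians were -0.57 for the core, -0.61 for the ribosomal protein genes and -0.64 for the oxidative phosphorylation genes. Without wildtype 3 they were -0.23, -0.22 and -0.22 in the same order. Against wildtype 1 alone these were -0.019 for the core, 0.040 for the ribosomal protein genes and 0.014 for the oxidative phosphorylation genes. These comparisons share all libraries, and no difference between the sets was tested.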

How the data were processed

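The deposited table holds counts per gene ID for the 6 libraries. Per the submitters' processing notes, CASAVA 1.7, Subread, featureCounts and the mm10 build were used by the authors. No source used here gives the strand setting or the RNA selection, so overlapping genes on opposite strands cannot be told apart. Of 27179 IDs 93.1% were paired with a symbol from RefSeq or, for IDs absent there, from GENCODE. Counts were filtered with filterByExpr, scaled by TMM and tested with edgeR 4.0.16 (R 4.3.3) by its quasi-likelihood test, knockout against wildtype without a block, with Benjamini-Hochberg adjustment over 13505 genes and a threshold of 0.05. DESeq2 1.42.0 and limma voom 3.58.1 were alternatives, among 18 in all. The edgeR script was tested on simulated data. Totals of 13591925 to 20993962 counts gave each tested member at least 23 counts in every library. The members and lists were chosen with earlier results of these data known. Named genes are those of smallest, second smallest and largest p in each role, up to 3 of smallest p in each pathway list, and a set of subunits and regulators of known function. Other genes were named after their values were seen. Some genes of these lists are not reported here.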

Additional observations from a re-analysis of the deposited data

How the results depend on the processing

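No member passed edgeR's adjusted threshold under the alternatives with all 6 libraries, or with wildtype 1 as the only control, and leaving out 1 library gave 0 to 1. The count of members lower at an unadjusted p was 5 as reported. It was 20 with library size alone (18.4% of all genes), 10 with no filter (5.34%) and 3 with a mean of at least 10 CPM (7.53%). Limma voom gave 2 (4.75%), voom with quality weights 2 (5.96%) and the replicate block 3 (5.25%). With 1 library left out it was 0 to 19, against 1.66% to 13.9% of all genes. The count lower in every knockout library, also 5, was 25 with library size alone (25.6% of all genes) and 9 with no filter (7.88%). It was 26 without wildtype 1, against 24% of all genes. Without wildtype 2 or wildtype 3 it was 6 (14.6%), a share near the 15.8% and 13.9% of all genes. Without any 1 knockout library it was 8, against 11.6% to 17.3% of all genes. Set against wildtype 1 alone, the median log2 fold changes were 0.031 for the members, -0.12 for the alpha ring, 0.059 for the beta ring, 0.037 for the ATPases and 0.030 for the non-ATPase genes of base and lid. With library size alone they were -0.35 for the ATPases, -0.41 for the non-ATPase genes and -0.044 for the activators. The non-ATPase median ran from -0.36 to -0.10 with 1 library left out. The cause of these differences was not tested.

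Of 928 values of the 52 tested genes named by rule, 874 kept their sign and side of the threshold, 49 changed sign and 5 passed the threshold. With wildtype 1 as the only control the changed values were Adrm1 0.24, Psma3 0.23, Psmb1 0.085, Psmb10 0.27, Psmb6 0.042, Psmc3 0.15, Psmc4 0.018, Psmd1 0.025, Psmd13 0.078, Psmd5 0.21, Psmd9 0.031, Psme1 0.22, Psme3ip1 0.031, Rps27a 0.084 and Ubb 0.33. With library size alone they were Psmc2 -0.15, Psmd11 -0.16, Psmd2 -0.18, Psme2 -0.072, Psme3 -0.016 and Ubxn4 -0.028. Removing length and GC trends, which moved the median of all genes to -0.13, gave Adrm1 0.026, Psmd11 -0.036 and Psmd2 -0.075. Voom with quality weights gave Adrm1 0.051, Psmc3ip 0.0049 and Psmd5 0.019, voom gave Adrm1 0.0047, and upper-quartile factors gave Psmd2 -0.0086. With 1 library left out, the range was Adrm1 -0.17 to 0.087, Psmb8 -0.36 to 1.1, Psmc2 -0.17 to 0.27, Psmc3ip -0.53 to 0.19, Psmd11 -0.025 to 0.12, Psmd2 -0.040 to 0.045, Psmd5 -0.32 to 0.27, Psmd9 -0.49 to 0.047, Psme1 -0.48 to 0.10, Psme2 -0.0093 to 0.35, Psme3ip1 -0.51 to 0.13, Ubb -0.28 to 0.088, Ubxn4 -0.014 to 0.29, Usp14 -0.22 to 0.067 and Vcp -0.11 to 0.0092.

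Deviations from the group mean correlated at 0.115, -0.074 and 0.222 between knockout and wildtype libraries of equal number 1, 2 and 3. Knockout 1 and knockout 3 correlated best with the wildtype library of their own number, and knockout 2 with wildtype 1 (0.347). With 3 libraries a group these values cannot decide whether the libraries were paired. The fit with the replicate block called 236 of all genes and gave a member median of -0.23. Over all genes DESeq2 called 248 and the fit with no filter 24, against 0 in edgeR as reported, where 1974 had an unadjusted p under 0.05. The biological coefficient of variation was 24.2% over 3 libraries a group.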
